A study of Mus musculus with 8 samples.

Results

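The genes described here are 10 that encode factors able to act on hematopoietic cells in their niche, other than Kit ligand: the secreted or membrane-bound ligands Cxcl12, Csf1, Pdgfb, Tgfb1, Tgfb2, Dhh, Thpo, Il6 and Inhba, together with Cxcr4, the receptor of Cxcl12. They were taken by name from a table of 24015 genes, with no threshold on their values but with earlier results of these data known. Of the 10, 8 had enough counts to be among the 13908 genes tested, while Thpo and Inhba did not.

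RNA-Seq had been carried out on 8 samples, each of 100 cells sorted from E11.5 mouse AGM (aorta-gonad-mesonephros, where the first hematopoietic stem cells arise) and the vitelline and umbilical arteries. Hematopoietic cluster cells were sorted as Ter119- and VE-Cadherin+ with c-Kit on the surface, and endothelial cells as Ter119- and VE-Cadherin+ without c-Kit, CD41 or CD45. Each cell type was taken from wild type and from Sl/Sl (Steel) embryos, bred on a C57BL/6 background, giving 4 groups of 2 samples. In Sl/Sl embryos both copies of chromosome 10 carry a deletion that takes in Kitl, in every cell and from fertilization onwards, so a difference between genotypes is not that of endothelial loss alone. Cells came from single embryos or small pools of 1 genotype, sorted in more than one experiment, and the sorting experiment of each sample is not in the labels, so that it cannot be told apart from the replicate. The samples are labelled as biological replicates, and 2 against 2 libraries cannot give an exact permutation p below 0.333.

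Niche factors reach a hematopoietic cell either by diffusion over a short range or by contact, and act where the receiving cell carries the matching receptor. Cxcl12 draws and holds Cxcr4-bearing stem cells, Tgf-beta family ligands and activins signal through serine/threonine kinase receptors to Smad proteins, Hedgehog ligands such as Dhh relieve the block that Ptch1 places on Smo, and Il6 and thrombopoietin act through Jak and Stat proteins. In embryonic arteries, endothelial Pdgfb is known for recruiting mural cells and endothelial Cxcr4 for arterial patterning.

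The promoters of Cxcr4, Dhh and Il6 are shown because these genes, along with Pdgfb, passed the test between the cell types. Each sequence holds the 250 bases before the RefSeq start, 5′ to 3′ on the gene's strand, in build GRCm38.p6. Capitals mark matches, on either strand, to GGGCGG (the Sp/Klf GC box), TATAAA (the TATA box) and TGANTCA (the AP-1 element). The Ets core CCGGAA and the GATA element AGATAA were also searched.
Cxcr4 (chr1:128592300-128592549, minus strand): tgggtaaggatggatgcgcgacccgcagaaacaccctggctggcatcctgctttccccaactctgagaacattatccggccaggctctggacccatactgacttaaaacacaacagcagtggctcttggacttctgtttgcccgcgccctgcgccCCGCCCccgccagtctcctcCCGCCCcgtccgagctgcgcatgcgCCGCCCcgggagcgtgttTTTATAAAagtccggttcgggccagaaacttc
Dhh (chr15:98898541-98898790, minus strand): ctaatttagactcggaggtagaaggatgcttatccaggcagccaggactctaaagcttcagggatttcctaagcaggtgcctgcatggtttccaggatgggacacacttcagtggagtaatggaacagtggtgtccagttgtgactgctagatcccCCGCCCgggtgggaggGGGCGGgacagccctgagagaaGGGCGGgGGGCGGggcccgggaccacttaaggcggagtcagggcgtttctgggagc
Il6 (chr5:30012864-30013113, plus strand): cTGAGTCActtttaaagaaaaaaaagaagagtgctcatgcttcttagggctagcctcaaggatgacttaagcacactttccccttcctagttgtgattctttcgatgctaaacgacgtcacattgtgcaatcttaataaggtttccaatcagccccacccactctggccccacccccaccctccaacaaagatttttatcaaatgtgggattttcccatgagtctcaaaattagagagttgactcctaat
The Cxcr4 window held 3 matches to GGGCGG and a pair of overlapping TATAAA matches, the nearest 30 bases before the start. The Dhh window held 4 GGGCGG matches and no TATAAA. The Il6 window, with a GC content of 42.8% against 59.6% for Dhh, held 1 TGANTCA match and no GGGCGG. Among all 32851 RefSeq promoters of this length, 32.7% held GGGCGG, 12.4% TATAAA, 6.75% TGANTCA, 12% the Ets core and 9.99% the GATA element. The GATA element was found in none of the members' windows, and the Ets core in 1 of the 2 Thpo windows alone. Pdgfb had no entry. These matches describe letters and not binding.

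Levels are given as CPM, the counts of a gene per fixed number of counts in its library, after each library total was scaled by its TMM factor (trimmed mean of M values). Counts summed to between 8933236 and 13428214 per library, and 12844 to 14309 genes were detected. Kitl, as the check of the genotype, had counts of 1250 and 923 for the wild type endothelium, whereas the Sl/Sl endothelium gave 6 and 2. The wild type clusters gave 110 and 0 counts and those of Sl/Sl 1 and 3, so that in clusters Kitl cannot check the genotype of each library. All 10 endothelial markers (Cdh5, Kdr and others) were higher in endothelium, and 9 of 10 hematopoietic, 8 of 10 macrophage and 7 of 8 megakaryocyte markers were higher in clusters, while 0 of 10 mesenchymal, 0 of 8 mural and 0 of 6 erythroid markers passed the edgeR test either way (0, 0 and 1 at an unadjusted p under 0.05). Cluster libraries also held endothelial transcripts: the endothelial markers summed to 421 to 2730 CPM in clusters and to 5815 to 6593 CPM in endothelium. Markers of mesenchyme, a cell type outside both gates, summed to 4247 CPM in Sl/Sl clusters replicate 2, with all 10 detected. They summed to 42.2 CPM in Sl/Sl clusters replicate 1 and to 794 and 918 CPM in the wild type clusters. Endothelium of wild type embryos had sums of 1309 and 213 CPM, whereas that of Sl/Sl embryos had 140 and 1041 CPM. Apart from Sl/Sl clusters replicate 2, between 8 and 10 of these markers were detected in each, with Pdlim3, Meox1 or Osr1 those at 0. Results that turn on that library are given with and without it.

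To ask how the ligands were divided between the clusters and the endothelium, the 4 endothelium libraries were compared with the 4 cluster libraries over both genotypes. Dhh, Cxcr4 and Pdgfb were higher in endothelium, by 90.4-fold, 6.32-fold and 3.38-fold, and Il6 was lower. Cxcl12, Csf1, Tgfb1 and Tgfb2 did not pass the test at an adjusted p under 0.1. Thus 4 of the 8 members tested passed, 3 higher and 1 lower, where 16.6% of all genes tested passed, 8.48% higher and 8.12% lower. The same 4 members were those whose endothelium and cluster libraries did not overlap, as was so for 19.7% of all genes. The median log2 fold change of the 8 members was 1.52, beside -0.07 over all genes tested. In such samples of sorted cells, fewer cells of a type and less RNA per cell cannot be told apart.

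**Figure D1:**
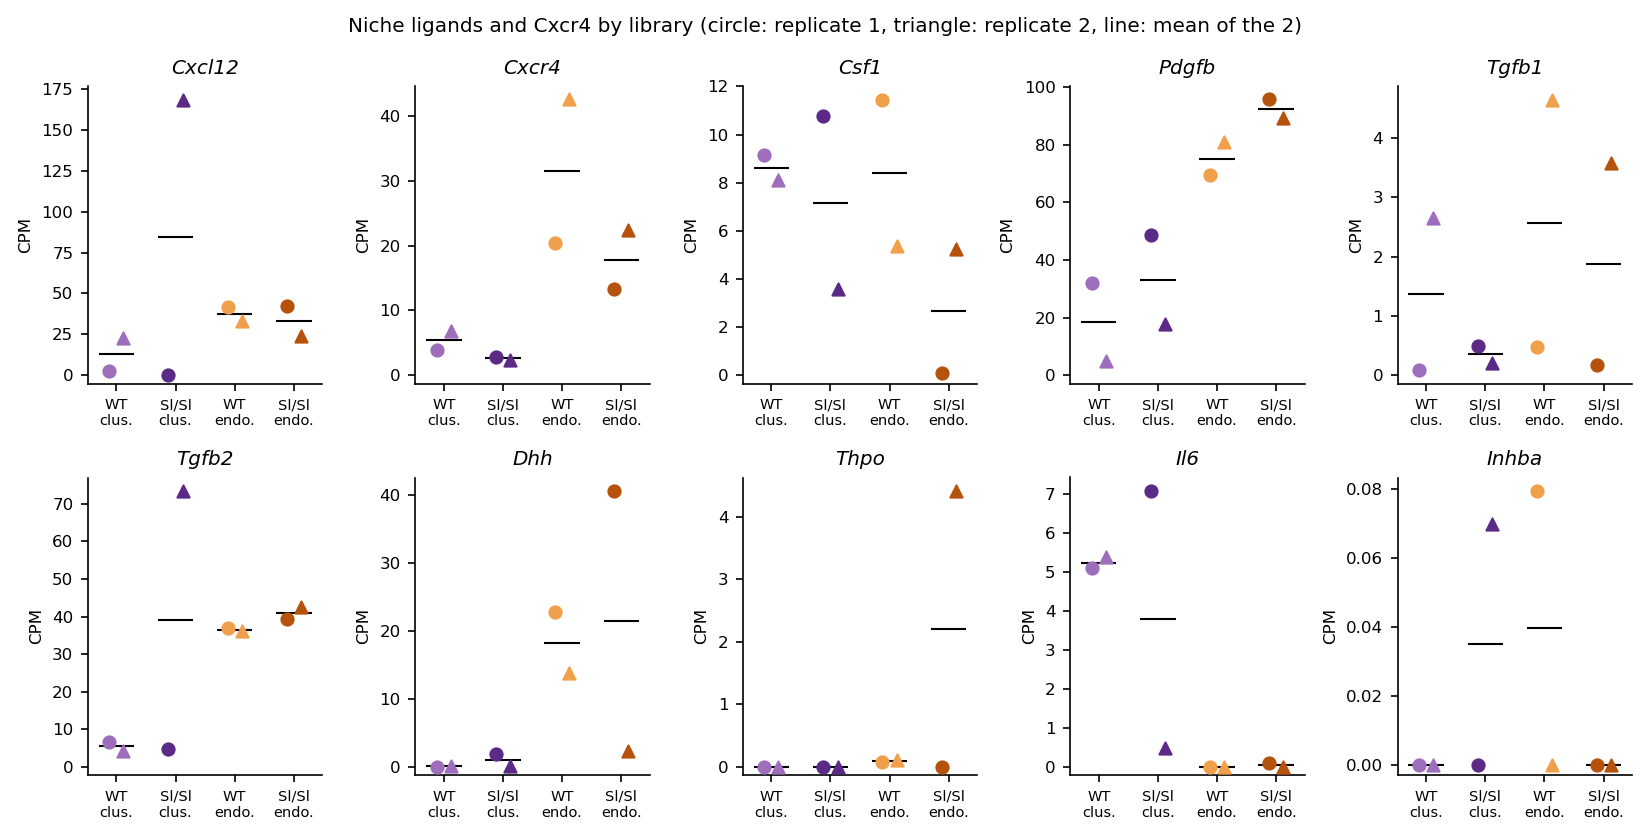
TMM-scaled CPM of the 10 members in each of the 8 libraries, by group, with a line at the mean of the 2 replicates and a separate axis for each gene. Pdgfb, Cxcr4 and Dhh lay higher in all 4 endothelium libraries than in any cluster library, Il6 lower, and the top values of Cxcl12 and Tgfb2 came from Sl/Sl clusters replicate 2.

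Pdgfb, the platelet-derived growth factor B chain, was the most abundant ligand of the list in the endothelium. The gene lies at chr15:79826306-79845238 (mm9, minus strand), and counts were taken over its 7 exons. All gene positions that follow are in mm9 too, unlike the promoter windows above. Endothelium held 69.5 and 80.8 CPM in wild type and 95.8 and 89.3 CPM in Sl/Sl. Clusters held 31.9 and 4.83 CPM in wild type and 48.7 and 17.7 CPM in Sl/Sl, so all 4 lay below the endothelium. The log2 fold change was 1.76 ± 0.56 (SE, n = 4 and 4 libraries, edgeR quasi-likelihood test, Benjamini-Hochberg adjusted p = 0.0833). This was close to the threshold, and the call was lost in 6 of the 8 fits that left out 1 library, all but those without wild type clusters replicate 1 or Sl/Sl clusters replicate 1, at 1.32 without wild type clusters replicate 2 and at 1.48 without Sl/Sl clusters replicate 2. The cluster libraries had the same order for Pdgfb as for the summed endothelial markers, at 1173 and 421 CPM in wild type and 2730 and 745 CPM in Sl/Sl. The part of endothelial transcripts in the cluster values of Pdgfb was not tested.

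Dhh, a Hedgehog ligand (chr15:98723458-98728971, minus strand, 3 exons), was found mostly in the endothelium. The wild type endothelium gave 287 and 136 counts, the Sl/Sl endothelium 463 and 20, the wild type clusters 0 and 1, and the Sl/Sl clusters 22 and 1. The highest cluster library, at 1.81 CPM, was close to the lowest endothelium library, at 2.38 CPM. The log2 fold change over both genotypes was 6.50 ± 1.49 (edgeR, Benjamini-Hochberg adjusted p = 0.0249), and it ran from 4.92 to 8.27 when each library was left out, past the threshold in all 8 fits. In wild type alone the endothelium held 423 counts and the clusters 1, a ratio of 460 after scaling, with a 95% counting interval of 82.1 to 18205. As the libraries carry no molecular identifiers, amplified copies of 1 molecule count as separate reads. Such intervals are therefore too narrow, and they leave out the spread between replicates. The 95% interval worked out from the edgeR test for the log2 fold change of Dhh in wild type was 3.24 to 13.74. The Sl/Sl endothelium libraries lay far apart for Dhh, at 40.5 and 2.38 CPM, with both wild type values of 22.8 and 13.7 CPM between them.

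Transforming growth factors showed separate patterns. Tgfb2 (chr1:188447065-188529871, minus strand) was even in the endothelium, at 37.0 and 36.1 CPM in wild type and 39.2 and 42.5 CPM in Sl/Sl. In clusters it was at 6.56 and 4.28 CPM in wild type and at 4.85 CPM in Sl/Sl replicate 1, but at 73.6 CPM in Sl/Sl replicate 2. Over both genotypes the log2 fold change was 1.41 ± 0.70 and did not pass (edgeR, Benjamini-Hochberg adjusted p = 0.239). Without Sl/Sl clusters replicate 2 it was 2.91 and passed (edgeR, Benjamini-Hochberg adjusted p = 0.0284). Tgfb1 (chr7:26472021-26490015, plus strand), which hematopoietic and endothelial cells are both known to make, had few counts. It was at 2.65 CPM in wild type clusters replicate 2, at 4.65 and 3.58 CPM in the second endothelium libraries of wild type and Sl/Sl, and at 0.09 to 0.49 CPM in the other 5 libraries. Its values differed more within groups than between them, and the log2 fold change of 1.64 had a 95% interval from -2.46 to 5.74.

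Cxcl12 (chr6:117118553-117131386, plus strand, 4 exons) was steady in the endothelium and scattered in the clusters. Endothelium held 41.6 and 33.0 CPM in wild type and 42.0 and 23.95 CPM in Sl/Sl. Clusters held 2.85 and 22.7 CPM in wild type and 0.25 and 168 CPM in Sl/Sl, with Sl/Sl replicate 2 above every endothelium library. The log2 fold change was 0.10 ± 1.17 (edgeR, Benjamini-Hochberg adjusted p = 0.988) with that library and 4.27 without it (edgeR, Benjamini-Hochberg adjusted p = 0.0433). The same library had the highest sums of mesenchymal, mural and megakaryocyte markers. Megakaryocyte markers summed to 1698 CPM in it, to 258 CPM in Sl/Sl clusters replicate 1 and to 99.7 and 1125 CPM in wild type clusters. The part of these cell types in the Cxcl12 and Tgfb2 values of the clusters was not tested. For the cluster libraries with mesenchymal sums of 42.2, 794, 918 and 4247 CPM, Cxcl12 was at 0.25, 2.85, 22.7 and 168 CPM, in the same order. Tgfb2 was at 4.85, 6.56, 4.28 and 73.6 CPM in them. For the endothelium libraries with mesenchymal sums of 140, 213, 1041 and 1309 CPM, Cxcl12 was at 42.0, 33.0, 23.95 and 41.6 CPM and Tgfb2 at 39.2, 36.1, 42.5 and 37.0 CPM.

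**Figure D2:**
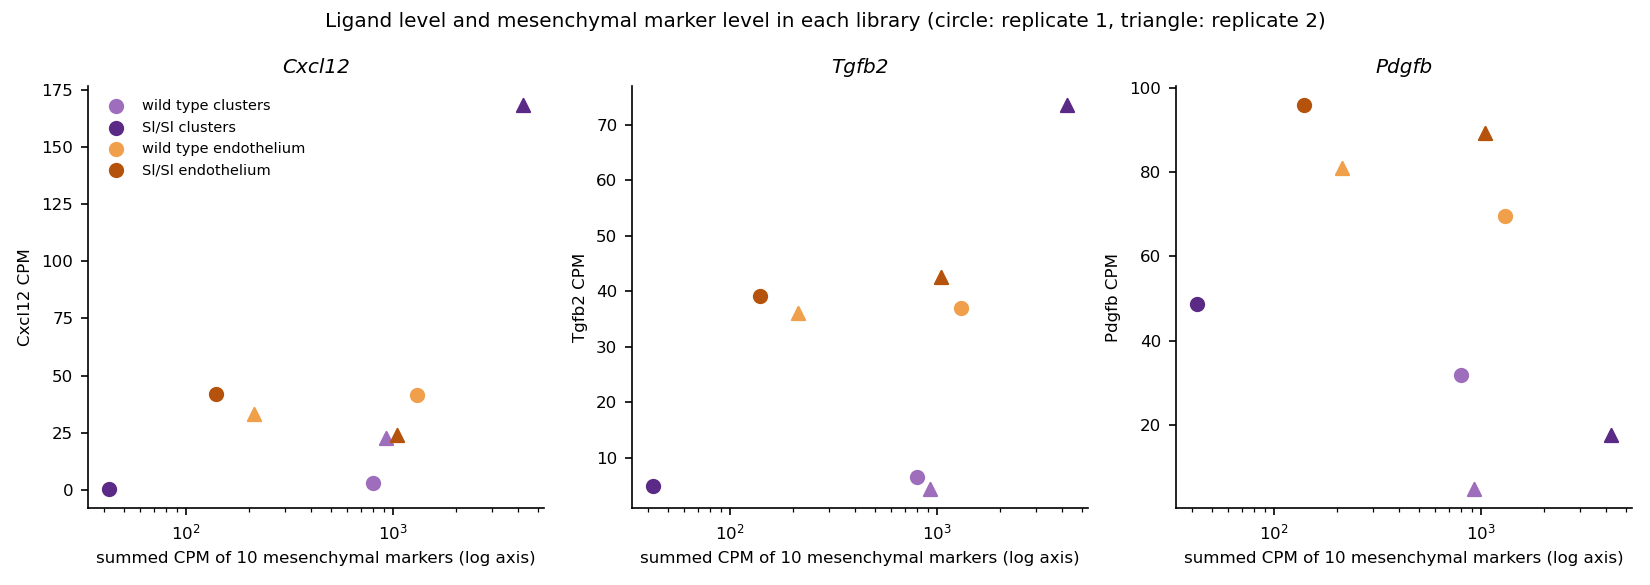
CPM of Cxcl12, Tgfb2 and Pdgfb in each library (vertical axes) against the summed CPM of 10 mesenchymal markers (horizontal log axis), with colours for the 4 groups. Sl/Sl clusters replicate 2 stands at the upper right for Cxcl12 and Tgfb2, and the 4 endothelium libraries lie from 23.95 to 42.0 CPM for Cxcl12 and from 36.1 to 42.5 CPM for Tgfb2.

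Csf1 (chr3:107543966-107563387, minus strand, 10 exons), the macrophage colony-stimulating factor, was at a like level in both cell types except for 1 library. The wild type clusters held it at 9.15 and 8.10 CPM and the Sl/Sl clusters at 10.8 and 3.57 CPM. Endothelium had 11.4 and 5.35 CPM in wild type, and 5.24 CPM in replicate 2 of Sl/Sl. Sl/Sl endothelium replicate 1 held 1 count, or 0.09 CPM. The log2 fold change of endothelium over clusters was -0.73, with a 95% interval from -3.37 to 1.90 that does not exclude a large difference either way.

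Il6 (chr5:30339701-30346508, plus strand, 5 exons), the cytokine that gives its name to the Il6 family, was found in the clusters and had 1 count in the whole endothelium. Wild type clusters held 59 and 69 counts and Sl/Sl clusters 86 and 7, whereas the 4 endothelium libraries gave 0, apart from 1 count in Sl/Sl replicate 1. All cluster libraries lay above all endothelium libraries. In all, 221 counts stood against 1, a ratio of 184 after scaling with a 95% counting interval of 32.6 to 7283. The edgeR log2 fold change of endothelium over clusters, which takes in the spread between replicates, was -7.49, with a 95% interval from -12.29 to -2.69. Intervals of Il6 are too narrow, as its test had fewer degrees of freedom than they assume. With 3 counts set as a floor for the wild type endothelium, the ratio of wild type clusters over it was 39.2. This is no lower bound, as the counting limit alone was 31.5. In wild type alone, Il6 had a log2 fold change of endothelium over clusters of -8.93, with a 95% interval from -16.15 to -1.71. There Il6 did not pass (edgeR, Benjamini-Hochberg adjusted p = 0.176). The test over both genotypes called it (edgeR, Benjamini-Hochberg adjusted p = 0.0613), but only 1 of the 8 fits without a library kept that call, that without Sl/Sl clusters replicate 2. Macrophage markers also differed, with sums of 262 to 863 CPM in clusters and 6.83 to 34.9 CPM in endothelium. Of the 10 macrophage markers, 8 were called lower in endothelium, Cx3cr1 and C1qa were at 0 in 3 endothelium libraries each, and their part in the Il6 counts was not tested.

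Thpo and Inhba were at or near 0, apart from 1 library for Thpo. Thpo (chr16:20724527-20734584, minus strand), which encodes thrombopoietin, had 0 counts in all 4 cluster libraries, 1 count in each wild type endothelium library, and 0 and 37 counts for the Sl/Sl endothelium, so that 37 of its 39 counts came from 1 library. Its exons overlap those of Chrd on the opposite strand, and Chrd had 0 counts in that library. Inhba (chr13:16106308-16119044, plus strand), the activin A subunit, had 1 count in a library of Sl/Sl clusters, 1 in a library of wild type endothelium and 0 in the other 6. At this depth neither gene could be compared between groups.

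On the RPKM scale, which divides counts by both the exon length of the gene and the library total, the endothelium held Pdgfb at 27.2 ± 3.5 (SD, n = 4), Cxcr4 at 13.0 ± 6.5, Dhh at 8.08 ± 6.57, Tgfb2 at 7.82 ± 0.53 and Cxcl12 at 4.70 ± 1.21 RPKM. Csf1 at 1.20 ± 1.03 and Tgfb1 at 1.00 ± 1.00 RPKM followed. Pdgfb lay above every other member in each endothelium library, while Cxcr4, Dhh and Tgfb2 overlapped. In wild type endothelium Pdgfb was at 23.2 and 25.9 RPKM and Kitl at 17.9 and 16.1 RPKM, so that Pdgfb was the one ligand of the list above Kitl in both libraries. In clusters the order by mean was Pdgfb at 9.15 ± 6.55, Cxcl12 at 7.18 ± 11.98, Tgfb2 at 5.01 ± 7.72 and Il6 at 4.30 ± 2.65 RPKM, with spreads too wide to separate them.

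Cxcr4 (chr1:130484776-130488876, minus strand, 2 exons), the Cxcl12 receptor, was higher in the endothelium than in the clusters. It was at 20.4 and 42.6 CPM in wild type endothelium and 13.3 and 22.4 CPM in Sl/Sl endothelium. The clusters held 3.97 and 6.85 CPM in wild type and 2.87 and 2.31 CPM in Sl/Sl, all below the endothelium. The log2 fold change was 2.66 ± 0.65 (edgeR, Benjamini-Hochberg adjusted p = 0.0322) with 2.54 in wild type and 2.78 in Sl/Sl. Leaving out Sl/Sl clusters replicate 2 or wild type endothelium replicate 2 ended the call at nearly the same size, 2.58 and 2.32 (edgeR, Benjamini-Hochberg adjusted p = 0.107 and 0.122). Ackr3, the scavenging receptor of Cxcl12, was higher in endothelium as well, with a log2 fold change of 2.66 ± 0.68 (edgeR, Benjamini-Hochberg adjusted p = 0.0382). Its libraries overlapped, since Sl/Sl clusters replicate 2 held 34.4 CPM and Sl/Sl endothelium replicate 1 held 30.0 CPM, and the call was lost without wild type clusters replicate 2 and without wild type endothelium replicate 2.

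The receptors for the other ligands were divided between the cell types. Csf1r, the receptor of Csf1, was at 21.6 to 38.7 CPM in clusters and 0 to 0.40 CPM in endothelium, a log2 fold change of -7.10 ± 0.94 (edgeR, Benjamini-Hochberg adjusted p = 0.00215). Il6ra, which binds Il6, was at 3.53 to 9.37 CPM in clusters and 0 to 1.67 CPM in endothelium (edgeR, Benjamini-Hochberg adjusted p = 0.0993), a call lost in all 8 fits that left out 1 library. Both were therefore higher in the clusters, but Csf1r is also a macrophage gene, and 8 of 10 macrophage markers were higher there. The part of such cells in these values was not tested. Il6st, the signalling partner of Il6ra, was at 8.41 to 24.6 CPM in clusters and 10.01 to 70.05 CPM in endothelium and did not pass.

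Receptors of the Tgf-beta family lay on both sides. Tgfbr1 was nearly level, with a log2 fold change of -0.02 ± 0.30, and a 95% interval from -0.69 to 0.66. Tgfbr2 was at 51.7 to 138 CPM in clusters and 109 to 226 CPM in endothelium and missed the threshold (edgeR, Benjamini-Hochberg adjusted p = 0.114). The endothelial type I receptor Acvrl1 and the co-receptors Eng and Tgfbr3 were higher in endothelium, with log2 fold changes of 3.67, 2.28 and 1.87. The activin receptors Acvr2a and Acvr2b did not pass, at 0.97 and -0.14. For Dhh, the receptor Ptch1 was at 1.01 to 2.52 CPM in clusters and 0 to 12.5 CPM in endothelium, with means of 0.83 CPM in wild type and 7.87 CPM in Sl/Sl endothelium. Pdgfrb, a receptor of Pdgfb and a mural and mesenchymal gene, had 508 counts in Sl/Sl clusters replicate 2, 165 in wild type clusters replicate 2, 179 in wild type endothelium replicate 1 and at most 7 in the other 5 libraries, so that it did not separate the cell types. Pdgfra, the other Pdgf receptor of the list, had more, at 4.19 to 106 CPM in clusters and 9.90 to 46.5 CPM in endothelium, and did not pass.

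**Figure D3:**
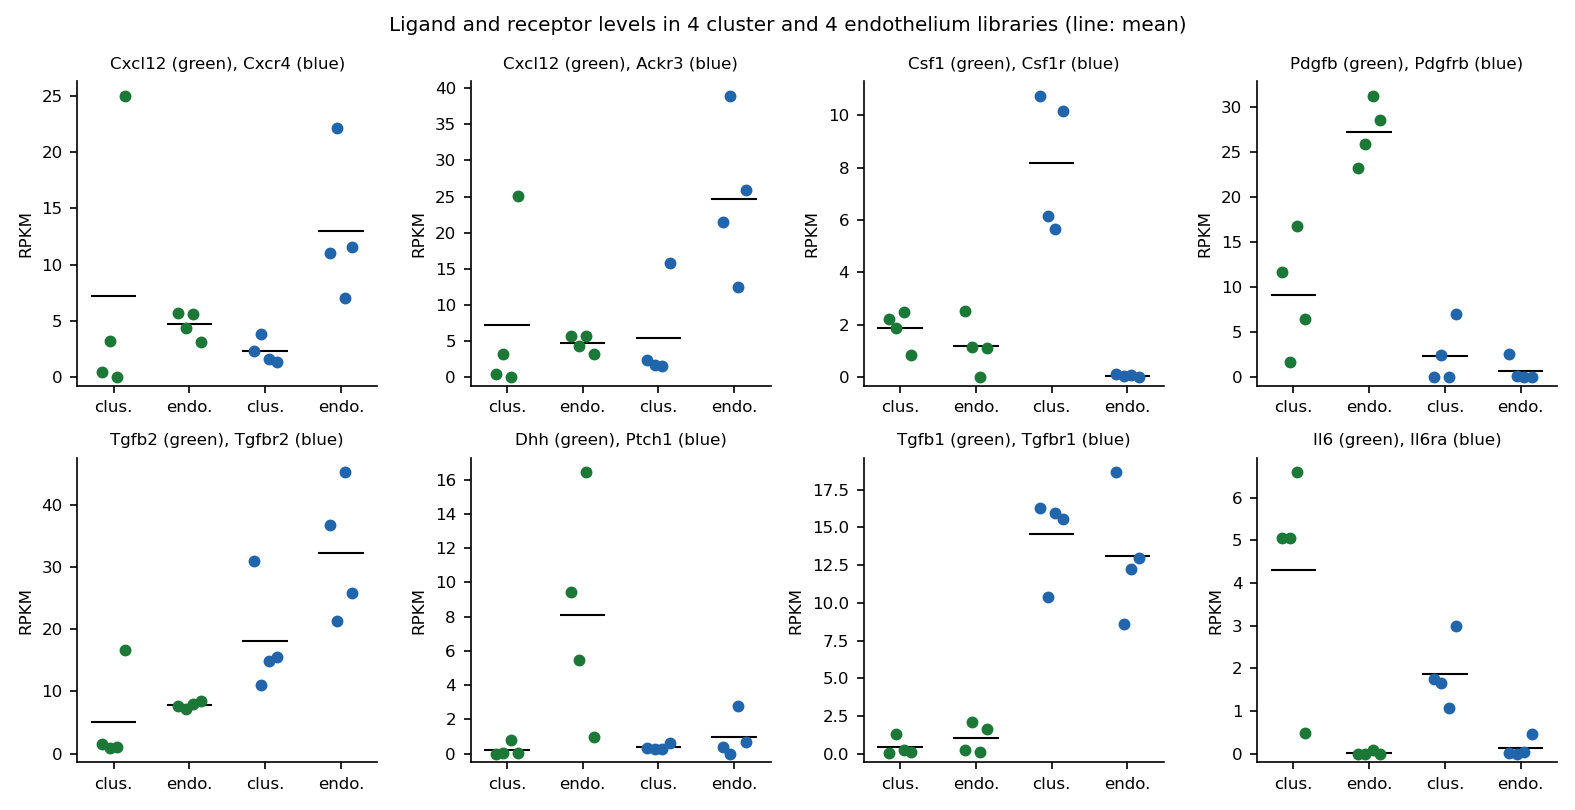
RPKM of ligands (green) and their receptors (blue) in the 4 cluster and the 4 endothelium libraries, with a line at the mean. Csf1r and Il6ra lie higher in clusters, Cxcr4 and Ackr3 have their highest values in endothelium, and Pdgfrb and Ptch1 are low in most libraries.

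Over lists of pathway genes, the receptors had 5 called higher and 2 lower in endothelium of 21 tested, with Osmr, the oncostatin M receptor, the fifth of the higher at 21.5 to 51.8 CPM in endothelium against 0 to 7.31 CPM in clusters. Related ligands had 3 higher and 0 lower of 11 tested, each named here. Cxcl16, a membrane-bound chemokine, had 106 to 377 counts in the endothelium libraries and 1 count in all the clusters together. Pdgfd, a further Pdgf, was at 54.0 to 101 CPM in endothelium and 3.97 to 26.1 CPM in clusters. The chemokine Cxcl1 gave 79 and 179 counts for wild type endothelium, 170 and 0 for that of Sl/Sl, and 0 for every cluster library. Carriers, activators and inhibitors had 3 higher and 3 lower of 14 tested. The latent Tgf-beta binding protein Ltbp4 was at 114 to 180 CPM in endothelium and 0.08 to 14.4 CPM in clusters, and Fstl1 was higher too, by 2.98-fold. On the other side Nrros, which holds latent Tgf-beta on myeloid cells, was 5.61-fold, Thbs1 5.72-fold and Dpp4, a protease that cleaves Cxcl12, 10.7-fold higher in clusters, though the libraries of Thbs1 and Dpp4 overlapped. The third of the higher, Socs3, is a feedback inhibitor of Il6 family signals and gave 99 and 102 counts for wild type endothelium, 187 and 4 for that of Sl/Sl, and at most 7 for any cluster library. Among targets, 4 of 17 were higher and 0 lower, namely Skil, Ski and Smad7, which restrain Smad signals, and Ctgf, with log2 fold changes of 1.23, 1.45, 1.51 and 2.88. Each of these counts can be read against the 16.6% of all genes. With 1 library left out, the calls of Cxcl16, Pdgfd, Ltbp4, Fstl1, Nrros, Skil and Ski were kept in all 8 fits, while that of Osmr was lost in 1 (without wild type clusters replicate 2), those of Dpp4, Smad7 and Ctgf in 5, those of Cxcl1 and Thbs1 in 6 and that of Socs3 in 7. In these fits the log2 fold change ran from -2.94 to -1.32 for Thbs1, nearest to 0 without Sl/Sl clusters replicate 2, from -3.79 to -2.68 for Dpp4, nearest to 0 without wild type clusters replicate 2, and from -3.48 to -2.12 for Nrros, farthest from 0 without wild type endothelium replicate 1.

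Within wild type alone, Dhh was the 1 member of 8 to pass between endothelium and clusters, where 8.24% of genes did. Its log2 fold change was 8.49 ± 2.33 (edgeR, Benjamini-Hochberg adjusted p = 0.0785), and the call was lost when any of the 4 wild type libraries was left out, at 7.69 to 10.70. Within Sl/Sl alone, 0 of 8 passed by edgeR, while 2.83% of genes passed. At an unadjusted p under 0.05 there were 2 (Cxcr4 and Dhh), where 14.4% of genes were, and DESeq2 called the same 2. Cxcr4, Pdgfb, Dhh and Il6 kept separate endothelium and cluster libraries in either genotype, and in wild type Cxcl12 and Tgfb2 did so as well. With only 2 libraries a side, 50.6% of all genes were separate in wild type and 46.4% in Sl/Sl. DESeq2 called 5 members in wild type, namely Dhh, Cxcr4, Pdgfb, Tgfb2 and Il6. Values for the genotypes are side by side in the plot of fold changes.

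**Figure D4:**
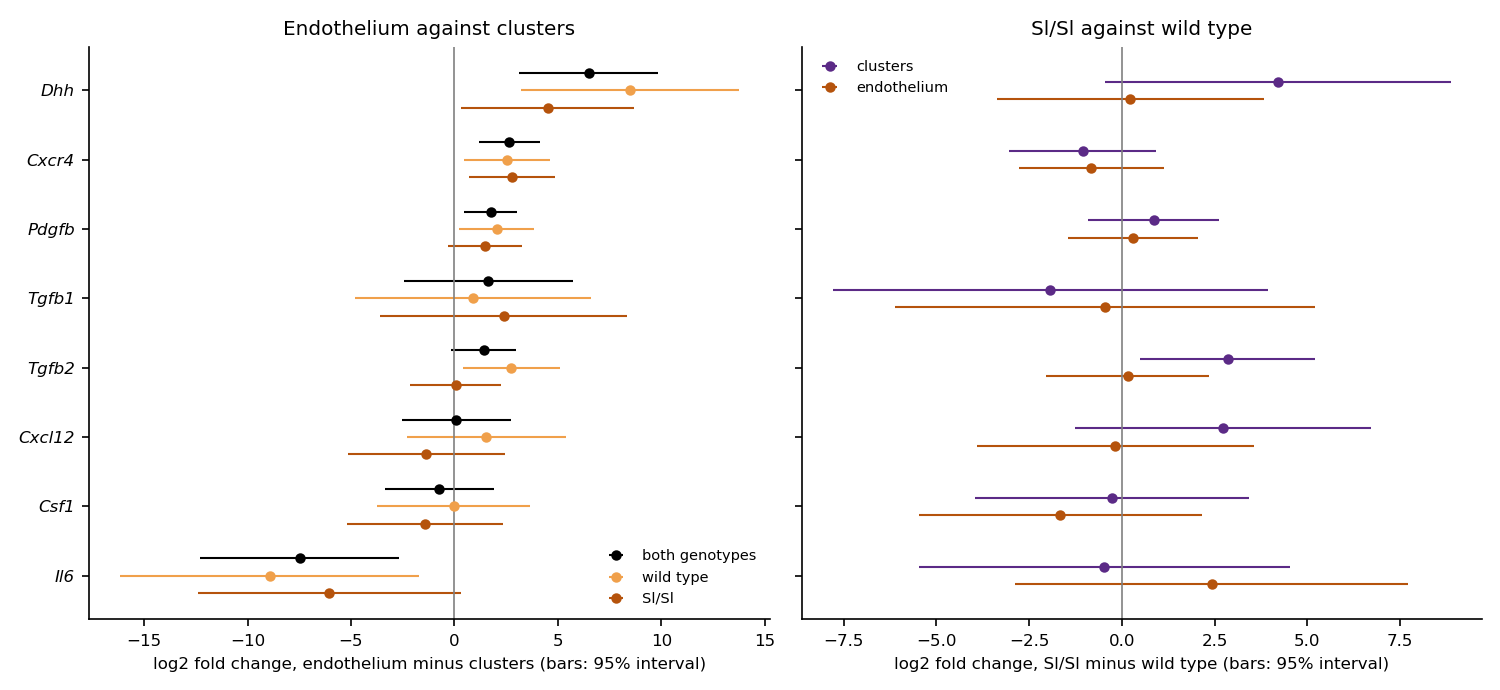
Log2 fold changes of the 8 members tested, with 95% intervals worked out from the edgeR test, for endothelium against clusters (left: over both genotypes, in wild type and in Sl/Sl) and for Sl/Sl against wild type (right: in clusters and in endothelium). On the left the intervals of Dhh, Cxcr4, Pdgfb and Il6 over both genotypes lie to 1 side of 0, and on the right that of Tgfb2 in clusters alone does so.

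The question whether loss of Kitl was accompanied by a change in the other ligands was addressed within each cell type. In endothelium no member passed: 0 of 8 by edgeR, 0 at an unadjusted p under 0.05 and 0 by DESeq2. Over all genes 0% passed by edgeR, 4.17% (580 genes) were at an unadjusted p under 0.05, and DESeq2 called 119 genes. The intervals were wide, however. The log2 fold change of Sl/Sl over wild type was 0.30 for Pdgfb (95% interval -1.44 to 2.04), 0.16 for Tgfb2 (-2.03 to 2.36), -0.18 for Cxcl12 (-3.92 to 3.56), -0.82 for Cxcr4 (-2.78 to 1.14), 0.23 for Dhh (-3.36 to 3.83) and -1.66 for Csf1 (-5.47 to 2.15). Differences of 2-fold in either direction lay inside each of these. Libraries did not overlap for 3 members, with Pdgfb and Tgfb2 higher and Csf1 lower in Sl/Sl, where 28.5% of all genes did not overlap. The Csf1 value came from Sl/Sl endothelium replicate 1, with its 1 count, and moved from -1.66 to -0.68 without it. By contrast Kitl itself had a log2 fold change of -7.91 ± 1.96 in these libraries, at an unadjusted p of 0.00278 that edgeR's adjustment over all genes took to 1.

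In clusters 0 of 8 members passed by edgeR and 0 by DESeq2, while Tgfb2 alone had an unadjusted p under 0.05, as did 4.22% (587) of all genes. Over all genes 0% passed by edgeR, and DESeq2 called 155. The log2 fold changes of Sl/Sl over wild type were 2.85 ± 1.05 for Tgfb2 and 2.72 ± 1.77 for Cxcl12. Both turned on Sl/Sl clusters replicate 2, the library with 4247 CPM of mesenchymal markers, and were -0.16 and -5.63 without it. Mural markers were highest in that library too, summing to 1012 CPM, against 404 CPM in Sl/Sl clusters replicate 1 and 158 and 173 CPM in the wild type clusters. All 8 mural markers had a log2 fold change above 0, with a median of 2.43, and 0 passed by edgeR (1 at an unadjusted p under 0.05). Dhh had 22 counts in Sl/Sl clusters replicate 1 and 0 or 1 in the other cluster libraries, and Pdgfb too was highest in replicate 1, at 48.7 CPM. That library had the highest sum of endothelial markers of the 4, 2730 CPM. The part of mesenchymal, mural, megakaryocyte or endothelial transcripts in these genotype values was not tested. Cxcr4 was the 1 member whose libraries did not overlap, at 3.97 and 6.85 CPM in wild type and 2.87 and 2.31 CPM in Sl/Sl, where 32.7% of all genes did not overlap. Its log2 fold change was -1.06 with a 95% interval from -3.04 to 0.92. For Il6 the wild type clusters held 59 and 69 counts and the Sl/Sl clusters 86 and 7, with no difference beyond the spread of the Sl/Sl pair. The test of whether the genotype difference itself differed between the cell types passed for 0 of 8 members by edgeR, with 0 at an unadjusted p under 0.05 and 0 by DESeq2, and for 0% of all genes (5.29%, or 736, at an unadjusted p under 0.05, and 121 by DESeq2). The smallest unadjusted p of a member by edgeR was 0.0869, for Tgfb2, at a log2 value of -2.69. Without Sl/Sl clusters replicate 2 that value was 0.32.

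Ordered by group mean, Cxcr4 ran from wild type endothelium (31.5 ± 15.7 CPM, SD, n = 2) over Sl/Sl endothelium (17.9 ± 6.4 CPM) and wild type clusters (5.41 ± 2.04 CPM) to Sl/Sl clusters (2.59 ± 0.40 CPM), and only the endothelium groups overlapped. Pdgfb ran from Sl/Sl endothelium (92.5 ± 4.6 CPM) over wild type endothelium (75.2 ± 8.0 CPM) and Sl/Sl clusters (33.2 ± 21.9 CPM) to wild type clusters (18.4 ± 19.2 CPM), with overlap between the cluster groups alone. For Dhh the endothelium groups overlapped each other, as did the cluster groups, and no endothelium library lay within the clusters. Tgfb2 and Cxcl12 had their lowest mean in wild type clusters, at 5.42 ± 1.61 and 12.8 ± 14.0 CPM, while the Sl/Sl cluster pair, with 1 low and 1 high library, overlapped each of the other 3 groups.

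Across the 8 libraries, the genes tested whose log2 CPM ran closest to each member were found by Pearson's r, as a description of libraries that share their cell types and depth. Choosing the 3 closest of 13908 genes over 8 libraries gives a high r by itself, and even Tgfb1 had a first gene at 0.961. Pdgfb ran closest to Sox7 (r = 0.996), an endothelial transcription factor, followed by Shroom2 and H19. Cxcl12 ran closest to Ahnak (r = 0.983), Cthrc1, which is secreted by mesenchymal cells, and Gpsm1. Cxcr4 ran closest to Atxn7l3 (r = 0.988), Tceb1 and Mtss1, Tgfb2 to Sulf2, Gria2 and Slc22a17, Dhh to Nme2, Sugt1 and Ccdc90b, Csf1 to Lyrm9, G6pc3 and Zdhhc21, and Tgfb1 to Plekhf2, Cdkl1 and Commd8. Of the 3 closest to Il6, Nr0b2 and Gpr132 can be named, and the third name had been turned into a date.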

How the data were processed

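RNA was measured with SMART-seq2, which copies and amplifies whole polyadenylated transcripts without molecular identifiers, in 2 libraries of each of 4 groups, mapped from the sample titles. The authors aligned read pairs to mm9 with STAR 2.4.2a, merged lanes and counted reads per gene with featureCounts of Subread 1.4.5. The deposited values are these raw counts with exon coordinates and lengths, and per the labels DESeq2 1.12.4 was applied afterwards. The annotation, strand setting and handling of multi-mapping reads are not given in the sources used here, so overlapping genes can share counts. Dates had replaced 27 of the deposited gene names.

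Counts were tested in R 4.3.3 with edgeR 4.0.16 (quasi-likelihood, TMM factors, filterByExpr on the 4 groups, 1 fit over all 8 libraries) at a Benjamini-Hochberg adjusted p under 0.1 over 13908 genes. For CPM the library totals were scaled by TMM factors, and for RPKM they were not. The biological coefficient of variation was 0.817. The SE was the log2 fold change without its sign, divided by the square root of the F statistic of the test. The 95% intervals used the same t quantile for all genes. They are too narrow for Il6, whose test had fewer degrees of freedom. Alternatives were DESeq2 1.42.0, RLE factors, no filter, the replicate number as a block, RPKM with scaled totals and leaving out each library. The script was tested on simulated counts. Exon overlaps were taken from an annotation of NCBIM37, the same build as mm9. Named genes were all members, Kitl, direct receptors, up to 6 called genes per pathway list and the 3 genes closest to each member. The members and lists were chosen with earlier results of these data known. Of the receptor list, 1 gene is not reported here.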

Additional observations from a re-analysis of the deposited data

Results flagged for a closer look

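Among the 4 libraries of a cell type, the highest value of a member stood far from the other 3 in 8 of 19 groups of values. Chance flags about 1 in 20 groups of normally spread values, a rate that does not hold for low counts or for 3 of these 8 groups, where 1 count against 0 in the other libraries had to stand apart. In clusters these were Cxcl12 at 168.4 CPM and Tgfb2 at 73.58 CPM, both in Sl/Sl replicate 2, whose mesenchymal markers summed to 4247 CPM. Dhh stood out at 1.807 CPM in Sl/Sl clusters replicate 1, which had the highest endothelial marker sum of the clusters, 2730 CPM. Tgfb1 stood out at 2.647 CPM in wild type clusters replicate 2. Thpo stood out at 4.409 CPM in Sl/Sl endothelium replicate 2, from 37 counts. The remaining 3 came from 1 count each, and carry no information beyond it: Il6 at 0.08758 CPM in Sl/Sl endothelium replicate 1, Inhba at 0.06995 CPM in Sl/Sl clusters replicate 2 and Inhba at 0.07951 CPM in wild type endothelium replicate 1. The part of other cell types in these values was not tested.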

How the results depend on the processing

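Over both genotypes, 4 members were called by the reported test, by DESeq2, with RLE factors and with the replicate block, 5 without the filter (Tgfb2 was added), and 1 to 4 when a library was left out, with Dhh past the threshold each time. The calls over all genes, 2310 in the reported test, were 1438 to 1983 then, the lowest without Sl/Sl clusters replicate 2. In wild type, 1146 genes and 1 member became 2409 and 5 by DESeq2, 1990 and 3 without the filter, and 412 to 1107 and 0 to 2 when a library was left out (412, 486 and 508 without wild type clusters replicate 2 and wild type endothelium replicates 1 and 2). In Sl/Sl, 393 genes and 0 members became 1418 and 2 by DESeq2, 1266 and 1 without the filter, and 115 to 450 genes when a library was left out (115, 142 and 201 without Sl/Sl endothelium replicate 1, Sl/Sl clusters replicate 2 and Sl/Sl endothelium replicate 2). For genotype in clusters, 0 genes became 155 by DESeq2, 253 without the filter, where 2 members (Cxcl12 and Tgfb2) were called, 8 with the block and 0 to 13 when a library was left out. In endothelium, 0 genes became 119 by DESeq2 and 65 without the filter. For the interaction, 0 genes became 121, 179 and 0 to 4 in the same order. The cause was not tested.

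The labels do not say that a replicate number marks a shared pool or sort, so the numbers were not taken to pair samples. Deviations of same-numbered libraries from their group means correlated at -0.11 to 0.157, the highest between wild type and Sl/Sl clusters. With 2 libraries a group, such correlations cannot decide whether a sort was shared. With the replicate block 4 values changed sign, none of them called: Cxcl12 between cell types in Sl/Sl (0.0022), Tgfb1 between genotypes in clusters (0.25), Dhh between genotypes in endothelium (-0.79) and the Tgfb1 interaction (-0.997).

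Leaving out 1 library turned the sign of the log2 fold changes that follow, none of them called, each with its lowest and highest value. Between cell types over both genotypes they were Cxcl12 (-0.40 to 4.27), Tgfb1 (-0.038 to 3.52), Tgfbr1 (-0.33 to 0.17), Acvr2b (-0.52 to 0.53), Pdgfrb (-5.70 to 0.57) and Ptch1 (-2.37 to 1.24). In wild type they were Csf1 (-0.69 to 0.38) and Tgfb1 (-1.53 to 4.69), and in Sl/Sl Cxcl12 (-2.35 to 7.003), Tgfb1 (-0.99 to 3.31) and Tgfb2 (-0.85 to 3.07). Between genotypes in clusters they were Cxcl12 (-5.63 to 4.88), Tgfb2 (-0.16 to 3.76), Tgfb1 (-2.88 to 1.89), Pdgfb (-0.053 to 2.78), Csf1 (-1.27 to 0.32), Il6 (-3.39 to 0.43) and Kitl (-5.90 to 3.896), and in endothelium Tgfb1 (-3.81 to 1.95), Dhh (-2.93 to 1.14) and Cxcl12 (-0.64 to 0.17). For the interaction they were Cxcl12 (-5.06 to 5.46), Tgfb2 (-3.60 to 0.32), Tgfb1 (-2.33 to 3.89), Pdgfb (-2.48 to 0.35) and Cxcr4 (-0.22 to 0.87). Il6 between genotypes in endothelium ran from 0 to 3.24 and turned no sign: at 0, without Sl/Sl endothelium replicate 1, no endothelial count was left.

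With 2 libraries a group of 100 cells each, and a spread this wide, the intervals of the genotype comparisons leave room for large differences in most members, and Thpo and Inhba are below what these counts can compare.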
